A study of Mus musculus with 6 samples.

Results

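Passage from quiescence through the G1 phase of the cell cycle was examined through 10 genes in the transcriptomes of hematopoietic stem cells (HSCs) that lack the ribosomal protein Rpl22. The genes were taken by symbol from the count table and encode the D-type cyclins *Ccnd1*, *Ccnd2* and *Ccnd3*, their kinase partners *Cdk4* and *Cdk6*, the inhibitors *Cdkn1b* and *Cdkn2c*, and the pocket proteins *Rb1*, *Rbl1* and *Rbl2*. All 10 were found among the 34573 genes of the table, and all 10 were among the 14004 genes with enough reads to be tested. By the labels, the HSCs were lineage-negative CD48-CD150+ cells sorted by flow cytometry from adult mouse bone marrow. There were 3 libraries from *Rpl22*-/- mice and 3 from *Rpl22*+/+ mice. The study's own definition of HSCs also requires Kit and Sca1 on the surface, which the labels do not name. *Rpl22* was ablated in the germline of the *Rpl22*-/- mice, so every cell of the animal, and not the HSC alone, carried the change. Poly(A)+ RNA was sequenced from untreated cells, with 9321123 to 13385850 reads on genes per library. The sources used here do not state that the libraries came from separate animals, so each p-value measures the spread between these libraries, which may be technical.

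In textbook terms, mitogens raise D-type cyclins, which bind CDK4 or CDK6 and begin the phosphorylation of the retinoblastoma protein and its relatives. The pocket proteins hold E2F transcription factors in check until that phosphorylation, and CDK inhibitors of the INK4 and Cip/Kip families oppose the kinases. Most adult HSCs rest outside the cycle, and in mice CDK6 and p18 are known to affect how readily HSCs leave that resting state. The comparison of the genotypes asked which messages of the G1 genes differ when Rpl22 is absent.

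The genotype labels were checked first against *Rpl22* itself. The *Rpl22*-/- libraries held 449, 527 and 546 reads of it where the *Rpl22*+/+ libraries held 6890, 7001 and 5031, a log2 fold change of -3.75. Reads of the gene were thus strongly reduced but not absent (0.0745-fold), and the source of those that remained was not tested. In a principal component analysis the first component carried 42% of the variance and separated the genotypes, with *Rpl22*-/- replicate 1 at -6.82, nearer the *Rpl22*+/+ libraries (16.8 to 24.9) than *Rpl22*-/- replicates 2 and 3 were (-30.9 and -22). All 9 HSC markers examined were detected, and 1 of them was lower by the test. Markers that encode antigens of the sort, *Kit* among them by the study's definition, were selected for by the gate. Their detection is therefore no separate check of identity. CPM denotes the reads of a gene per library, scaled to a common library size. The 9 summed to 2162 to 2369 CPM in *Rpl22*-/- libraries and 2345 to 2397 CPM in *Rpl22*+/+ libraries. *Kit*, the highest of them, gave 886 to 984 CPM against 890 to 990 CPM. The other 8 summed to 1277 to 1385 CPM against 1407 to 1455 CPM, without overlap. Point estimates were above 0 for 4 HSC markers and below 0 for 5. Among markers of other cells, all 6 megakaryocyte genes were higher in *Rpl22*-/- libraries, of which 4 passed the test, and their sum was 982 to 1242 CPM against 712 to 927 CPM. The 8 neutrophil markers summed to 96.5 to 211 CPM against 66.1 to 104 CPM, with 7 higher and 1 past the test. *Prtn3*, the highest of them, gave 54.998 to 73.2 CPM against 56.6 to 74.3 CPM. The other 7 summed to 32.97 to 139 CPM against 9.55 to 29.5 CPM, without overlap. *Mpo*, named after its values were seen, was at 101 CPM in *Rpl22*-/- replicate 2 and at 13.9 and 17.1 CPM in replicates 1 and 3. In *Rpl22*+/+ replicates 1, 2 and 3 it was at 1.46, 5.78 and 20.5 CPM, so the genotypes overlapped. Among *Rpl22*-/- libraries, replicate 2 was the highest for *Ccnd1*, and for *Cdk6* (183 CPM) it was close to replicate 1 (184 CPM). Among *Rpl22*+/+ libraries, replicate 3 was the highest for *Mpo* and the lowest for *Ccnd1*. The 7 erythroid markers summed to 979 to 1020 CPM against 849.6 to 901 CPM, 1 of them lower by the test. *Car2* alone gave 943 to 985.2 CPM against 818 to 860.0 CPM of that, and the other 6 overlapped at 30.4 to 36.4 CPM against 31.7 to 40.7 CPM. Of the lymphoid markers, 6 of the 8 B cell and 4 of the 6 T cell markers stayed under 1 CPM in every library, with 2 and 1 of them at 0 throughout. *Cd79b*, the highest B cell marker, gave 24.6 to 27.6 CPM against 20.7 to 22.05 CPM. *Lck*, the highest T cell marker, gave 9.74 to 11.6 CPM against 7.28 to 9.45 CPM. Both were without overlap, and neither passed the test. The other 7 B cell markers summed to 2.03 to 2.58 CPM against 2.49 to 3.95 CPM. The other 5 T cell markers summed to 3.35 to 5.09 CPM against 3.93 to 6.07 CPM. The part of these cell types in the differences below was not tested, and in bulk RNA a smaller number of cells of a type and less RNA per cell cannot be told apart.

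Of the 10 G1 genes, *Ccnd1* and *Cdk6* rose in *Rpl22*-/- HSCs and none fell, by the quasi-likelihood test of edgeR at an adjusted p (Benjamini-Hochberg, taken across the 14004 genes) below 0.05. Across the transcriptome 5.57% of genes passed that threshold, with 3.28% higher and 2.29% lower in *Rpl22*-/- HSCs. Point estimates were above 0 for 7 of the 10 genes and below 0 for 3, with a median log2 fold change of 0.15 beside -0.0068 over all genes tested. For 4 of the 10 genes no library of one genotype fell within the range of the other, with *Rpl22*-/- above for *Ccnd1*, *Ccnd2* and *Cdk6* and below for *Rb1*, where 26.9% of all genes showed no overlap. An unadjusted p below 0.05 was reached by 5 of the 10, a level reached by 22.3% of all genes. For none of the 10 did the 95% interval reach a 2-fold change.

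**Figure D1:**
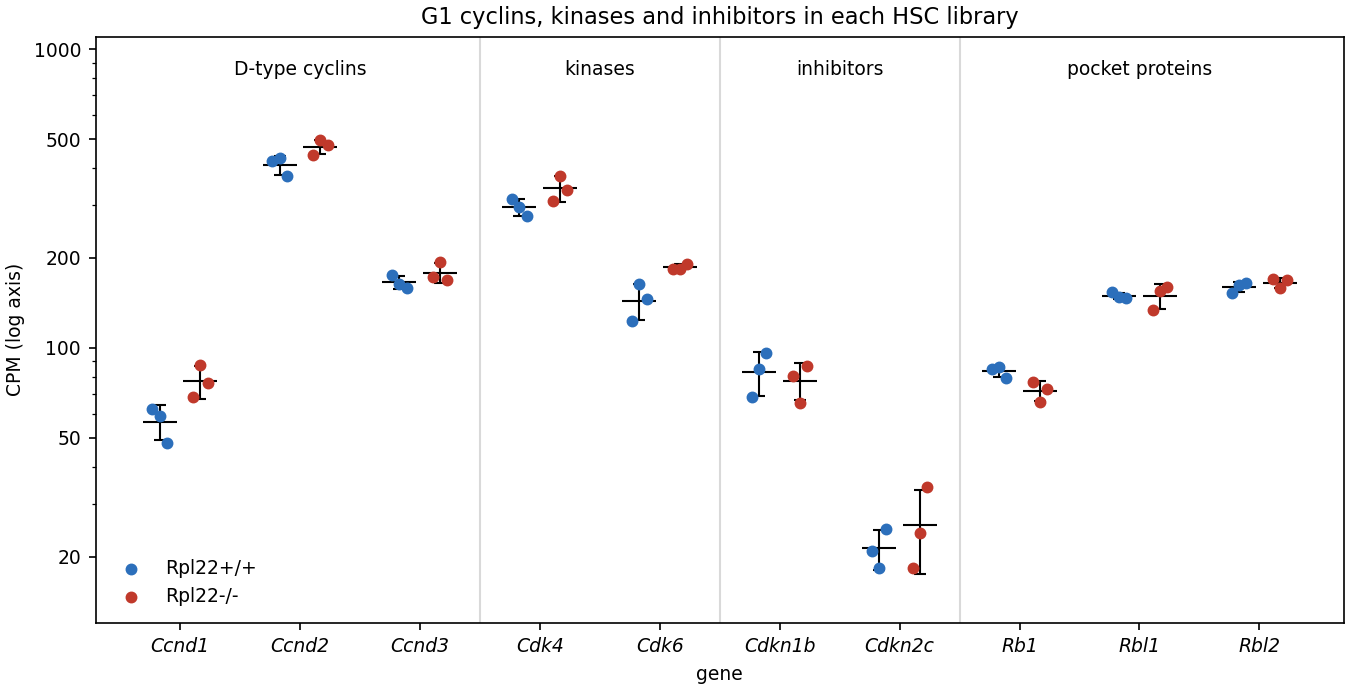
Level of each of the 10 genes in each HSC library, in CPM on a log axis, with 1 point per library and bars for the mean and SD of 3 libraries. The 3 *Rpl22*-/- points of *Ccnd1*, *Ccnd2* and *Cdk6* lie above all *Rpl22*+/+ points and those of *Rb1* lie below.

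All 3 D-type cyclins had higher mean levels in *Rpl22*-/- HSCs, and 1 of the 3 passed the test. *Ccnd1* encodes cyclin D1, the D-type cyclin most closely tied to growth factor signals. It was read at 68.2, 87.5 and 76.0 CPM in *Rpl22*-/- libraries and at 62.6, 59.2 and 48.1 CPM in *Rpl22*+/+ libraries. The lowest *Rpl22*-/- library stood above the highest *Rpl22*+/+ library, and the margin between them was small beside the range within either genotype. *Ccnd1* rose from 56.6 ± 7.61 to 77.2 ± 9.70 CPM (SD, n = 3 each), 1.36-fold (95% interval 1.15 to 1.60), with a log2 fold change of 0.44 (SE 0.11) and an edgeR adjusted p of 0.0333. The call was lost when any of 5 single libraries was left out, with edgeR adjusted p-values of 0.119 without *Rpl22*-/- replicate 2, 0.107 without *Rpl22*-/- replicate 3, and 0.0612, 0.0814 and 0.139 without *Rpl22*+/+ replicates 1, 2 and 3, whereas it held at 0.00686 without *Rpl22*-/- replicate 1. The log2 fold change stayed between 0.34 and 0.53 over those 6 fits.

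*Ccnd2* encodes cyclin D2, the most abundant D-type cyclin message per kilobase in these HSCs. Its levels were 443.6, 495.1 and 477.3 CPM in *Rpl22*-/- libraries against 423.1, 430.8 and 375.4 CPM in *Rpl22*+/+ libraries. The genotypes did not overlap, but *Rpl22*-/- replicate 1 lay close to *Rpl22*+/+ replicate 2, and *Rpl22*+/+ replicate 3 was the lowest of all. The means were 472 ± 26.2 and 409.8 ± 30.004 CPM, a log2 fold change of 0.20 (95% interval 0.012 to 0.40) that did not pass the test (edgeR adjusted p = 0.197).

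*Ccnd3* encodes cyclin D3, known for its roles in lymphoid and erythroid progenitors. Its levels of 172, 194 and 169 CPM in *Rpl22*-/- libraries and 175, 163 and 159 CPM in *Rpl22*+/+ libraries overlapped. The highest *Rpl22*+/+ library exceeded 2 of the 3 *Rpl22*-/- libraries. Between the genotypes the log2 fold change was 0.10 (95% interval -0.078 to 0.29, edgeR adjusted p = 0.512), and 0.041 without *Rpl22*-/- replicate 2.

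The make-up of the D-type cyclin pool was computed per library from CPM per kilobase of the longest transcript, since reads scale with length. *Ccnd2* made up 52.8% ± 1.27 of the pool in *Rpl22*-/- HSCs and 52.7% ± 1.09 in *Rpl22*+/+ HSCs (SD, n = 3 each). The *Ccnd1* share was 13.7%, 15.4% and 14.6% in *Rpl22*-/- libraries and 12.98%, 12.6% and 11.3% in *Rpl22*+/+ libraries, a difference of 2.27 percentage points without overlap. The *Ccnd3* share was 32.7% ± 1.15 against 35.0% ± 1.41, and its libraries overlapped, with *Rpl22*-/- replicate 1 at 33.57% and *Rpl22*+/+ replicate 2 at 33.52%. Beyond the overlap of libraries these shares were not tested. The difference for *Ccnd1* was 1.65 percentage points without division by length and 2.72 with the length of all exons merged.

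**Figure D2:**
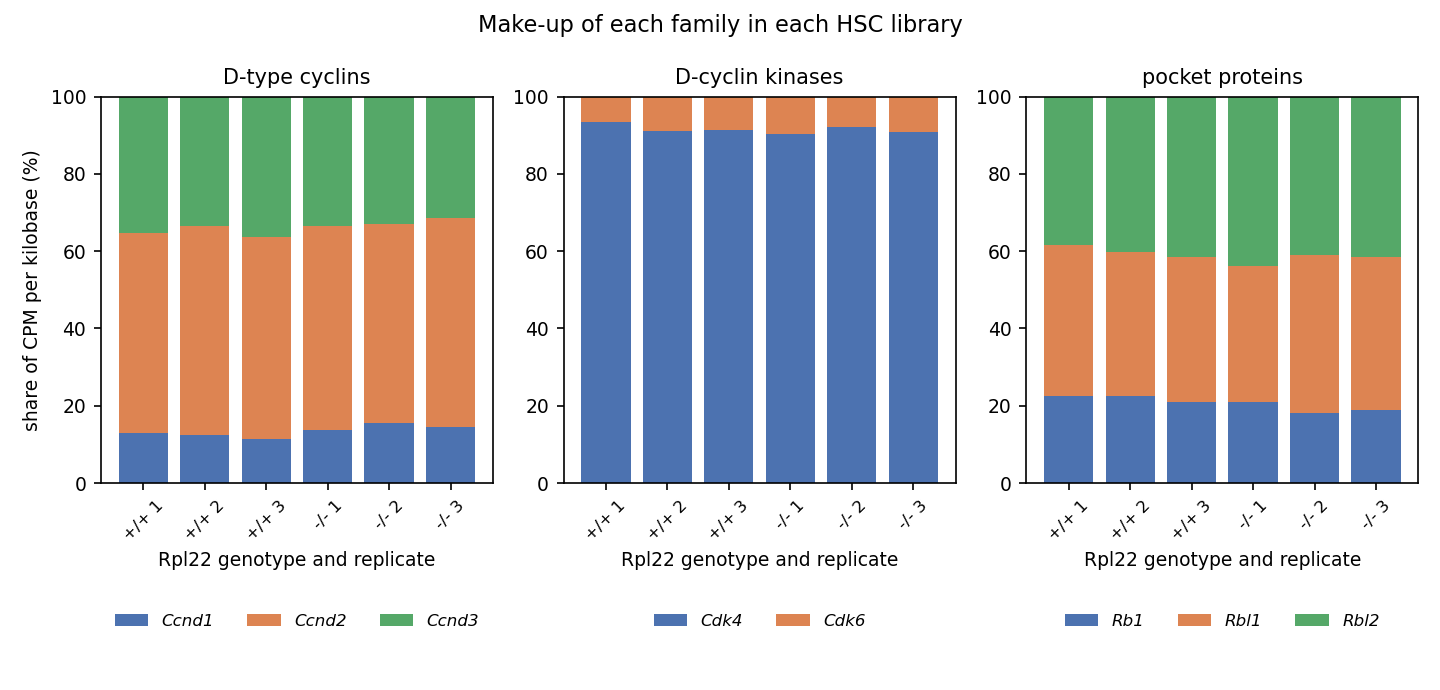
Share of each gene in the summed CPM per kilobase of its family (%), as stacked bars from 0 to 100, with 1 bar per HSC library. The bottom segment of the left panel, *Ccnd1*, is 11.3% to 12.98% in *Rpl22*+/+ libraries and 13.7% to 15.4% in *Rpl22*-/- libraries, and the bottom segment of the right panel, *Rb1*, is 21.05% to 22.6% in *Rpl22*+/+ libraries and 18.2% to 21.04% in *Rpl22*-/- libraries.

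Both kinase partners had higher mean levels in *Rpl22*-/- HSCs, and 1 of the 2 passed the test. *Cdk6* encodes the D-cyclin kinase whose level is known to set how fast resting HSCs enter the cycle. It was read at 184, 183 and 191 CPM in *Rpl22*-/- libraries and at 123, 163 and 145 CPM in *Rpl22*+/+ libraries. The *Rpl22*-/- libraries lay close together and all above the *Rpl22*+/+ libraries, which varied more. *Cdk6* rose from 144 ± 20.1 to 186 ± 4.30 CPM (SD, n = 3 each), 1.29-fold (95% interval 1.12 to 1.49), with a log2 fold change of 0.37 (SE 0.098) and an edgeR adjusted p of 0.038. The call held without *Rpl22*-/- replicate 1 (adjusted p = 0.0259) or *Rpl22*+/+ replicate 2 (0.0371) and was lost without *Rpl22*-/- replicate 2 (0.0661), *Rpl22*-/- replicate 3 (0.135), *Rpl22*+/+ replicate 1 (0.208) or *Rpl22*+/+ replicate 3 (0.108), with log2 fold changes of 0.27 to 0.47 in these edgeR fits. It was also lost when libraries were scaled by size alone (log2 fold change 0.33, edgeR adjusted p = 0.0632).

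*Cdk4* encodes the other D-cyclin kinase. Its levels were 310.0, 377 and 338 CPM in *Rpl22*-/- libraries and 315, 296 and 276 CPM in *Rpl22*+/+ libraries. *Rpl22*-/- replicate 1 fell within the *Rpl22*+/+ range, and the other *Rpl22*-/- libraries were above it. The log2 fold change of 0.21 (95% interval 0.0079 to 0.41) did not pass the test (edgeR adjusted p = 0.207), and it was 0.12 after length and GC trends were taken out (0.499) and 0.13 without *Rpl22*-/- replicate 2 (0.475).

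The balance of the kinases was compared as the ratio of *Cdk6* to *Cdk4* reads within each library, which needs no scaling between libraries. It was 0.593, 0.486 and 0.565 in *Rpl22*-/- libraries and 0.390, 0.552 and 0.525 in *Rpl22*+/+ libraries, so the genotypes overlapped. The mean log2 ratio was higher by 0.17 in *Rpl22*-/- libraries (exact two-sided permutation test, p = 0.5, where 3 against 3 libraries cannot go below 0.1), and the difference was 0.020 without *Rpl22*+/+ replicate 1 and 0.11 to 0.27 without any other library. Per kilobase *Cdk4* was the dominant message, and *Cdk6* made up 8.88% ± 0.83 of the pair in *Rpl22*-/- HSCs and 8.001% ± 1.32 in *Rpl22*+/+ HSCs.

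Promoter windows of 250 bases before the transcript start (RefSeq, GRCm38.p6) were at hand for 7 of the 10 genes, in 9 windows. They were searched on both strands for CACGTG, the palindromic E-box bound by Myc with Max, and for the E2F-type motifs TTTCCCGC and TTTGGCGC. CACGTG was present in the windows of both kinase genes and in none of the other 7, while 6.02% of the 32851 windows of all genes held it. The *Cdk4* window held 4 copies, 172, 118, 98 and 11 bases before the start, a number met or exceeded by 7 windows of all genes (0.0213%), and the *Cdk6* window held 1, 220 bases before the start. Neither E2F-type motif was found in the 9 windows, and 1.30% of all windows held one. The windows are shown for the kinases because *Cdk6* is 1 of the 2 genes called and *Cdk4* its partner with the same motif. Both are on the plus strand, 5′ to 3′, with CACGTG in capitals, and each is cut at the last base before an annotated exon, which leaves 249 bases for *Cdk4* and 89 for *Cdk6*. The *Cdk4* window, chr10:127063285-127063533, abuts the first exon of *Cdk4*, and the *Cdk6* window, chr5:3343643-3343731, lies within the annotated span of *Cdk6* directly before an exon of an annotated *Cdk6* transcript. A match of letters is a description of the window and not a measured binding site.
Cdk4: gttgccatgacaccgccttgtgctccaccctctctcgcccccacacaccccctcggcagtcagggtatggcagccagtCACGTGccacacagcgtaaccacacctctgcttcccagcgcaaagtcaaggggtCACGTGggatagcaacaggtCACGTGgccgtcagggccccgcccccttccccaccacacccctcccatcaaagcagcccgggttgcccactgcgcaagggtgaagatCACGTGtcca
Cdk6: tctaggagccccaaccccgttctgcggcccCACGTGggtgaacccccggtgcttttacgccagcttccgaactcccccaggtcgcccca

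The CDK inhibitors did not move together, and neither passed the test. *Cdkn1b* encodes p27, which holds CDK2 complexes inactive in resting cells. Its levels were 80.7, 65.5 and 86.8 CPM in *Rpl22*-/- libraries and 68.2, 85.0 and 95.9 CPM in *Rpl22*+/+ libraries. The ranges overlapped in part, with *Rpl22*-/- replicate 2 below and *Rpl22*+/+ replicate 3 above all other libraries. This gave a log2 fold change of -0.09 (95% interval -0.36 to 0.17, edgeR adjusted p = 0.712), and the value turned to above 0 without *Rpl22*-/- replicate 2 (0.016) or *Rpl22*+/+ replicate 3 (0.021) and after trends along gene length and GC content had been taken out (0.011).

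*Cdkn2c* encodes p18, an INK4 inhibitor that binds CDK4 and CDK6 themselves and is known to restrain HSC self-renewal. Per kilobase it had the lowest level of the 10 genes, and it was read at 18.3, 23.97 and 34.1 CPM in *Rpl22*-/- libraries and 20.8, 18.3 and 24.8 CPM in *Rpl22*+/+ libraries. *Rpl22*-/- replicate 3 stood above every other library, and replicate 1 was at the bottom of the *Rpl22*+/+ range, which gave the largest coefficient of variation among the 10 genes, 31.4%. The log2 fold change of 0.26 (95% interval -0.14 to 0.66, edgeR adjusted p = 0.439) became -0.0057 without *Rpl22*-/- replicate 3.

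Among the pocket proteins, *Rb1* was below its *Rpl22*+/+ level in all *Rpl22*-/- libraries, and none of the 3 passed the test. *Rb1* encodes the retinoblastoma protein, the main repressor of activating E2F factors. It was read at 76.8, 66.1 and 72.5 CPM in *Rpl22*-/- libraries and at 84.7, 86.2 and 79.1 CPM in *Rpl22*+/+ libraries. The genotypes did not overlap, and *Rpl22*-/- replicate 1 came nearest to the *Rpl22*+/+ libraries. The means were 71.8 ± 5.38 and 83.3 ± 3.76 CPM, a log2 fold change of -0.22 (SE 0.088, 95% interval -0.40 to -0.028) with an edgeR adjusted p of 0.162. Taking out each library's trends along length and GC content moved it to -0.08 (edgeR adjusted p = 0.653).

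*Rbl1* encodes p107, a pocket protein that is itself made by cycling cells. Its levels were 133, 155 and 160 CPM in *Rpl22*-/- libraries and 153, 148 and 147 CPM in *Rpl22*+/+ libraries. *Rpl22*-/- replicate 1 was the lowest of the 6, the other *Rpl22*-/- libraries were the highest, and the means were both 149 CPM. Its log2 fold change was -0.0016 (95% interval -0.19 to 0.18, edgeR adjusted p = 0.993).

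*Rbl2* encodes p130, the pocket protein that joins the repressor complex of resting cells. Its levels were 169.6, 158 and 169 CPM in *Rpl22*-/- libraries and 153, 163 and 165 CPM in *Rpl22*+/+ libraries. The ranges overlapped, with *Rpl22*+/+ replicate 1 the lowest library and *Rpl22*-/- replicate 1 the highest. Its log2 fold change was 0.05 (95% interval -0.13 to 0.22, edgeR adjusted p = 0.787). Within the pocket protein pool, per kilobase, *Rb1* made up 21.04%, 18.2% and 18.9% in *Rpl22*-/- libraries and 22.5%, 22.6% and 21.05% in *Rpl22*+/+ libraries, a difference of -2.69 percentage points with *Rpl22*-/- replicate 1 just under the lowest *Rpl22*+/+ library.

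**Figure D3:**
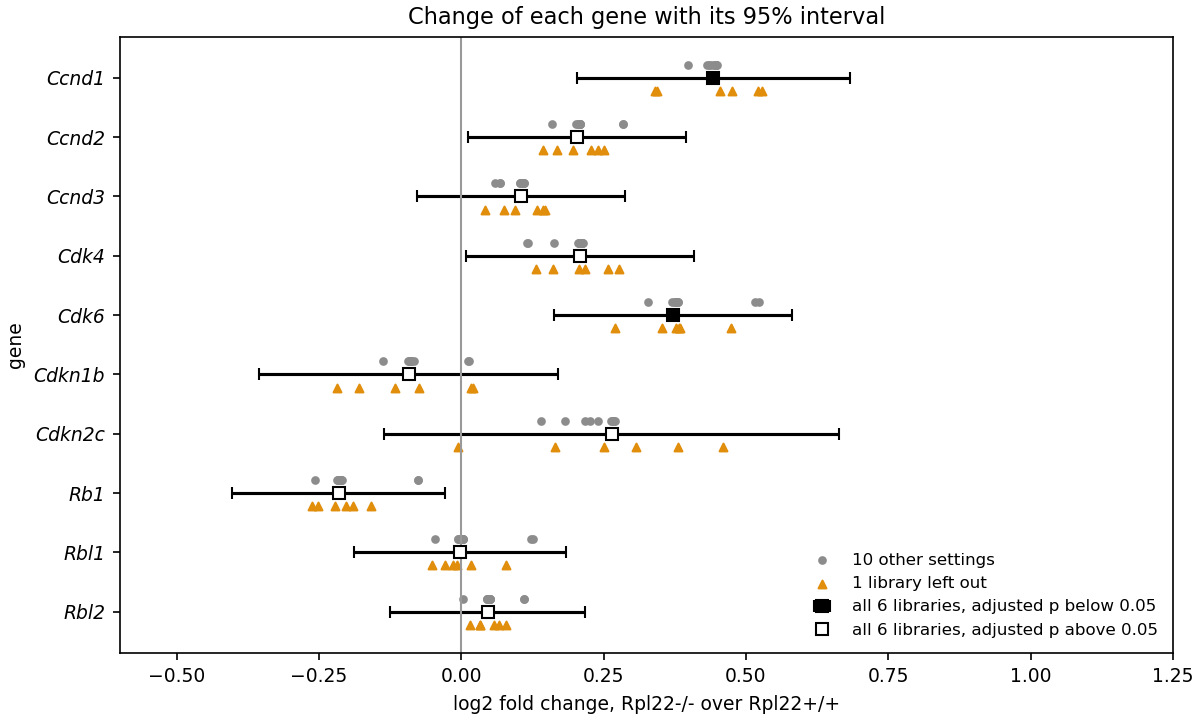
Log2 fold change of each gene, *Rpl22*-/- over *Rpl22*+/+, with its 95% interval (black, filled where the adjusted p is below 0.05), under 10 other settings (grey) and with 1 library left out (orange). All values of *Ccnd1* and *Cdk6* lie between 0.27 and 0.53, whereas those of *Cdkn1b*, *Cdkn2c* and *Rbl1* fall on both sides of 0.

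Levels were then ordered across the genes per kilobase of the longest transcript. In *Rpl22*+/+ HSCs the order was *Cdk4* (144 CPM per kilobase), *Ccnd2* (64.7), *Ccnd3* (42.9), *Rbl2* (32.5), *Rbl1* (30.7), *Cdkn1b* (18.2), *Rb1* (17.9), *Ccnd1* (15.1), *Cdk6* (12.5) and *Cdkn2c* (8.62). The libraries of *Rbl2* and *Rbl1* overlapped, as did those of *Cdkn1b* and *Rb1* and those of *Ccnd1* and *Cdk6*, so the order within each of these pairs did not exceed the spread. In *Rpl22*-/- HSCs *Ccnd1* (20.6) stood 6th in place of 8th and *Rb1* (15.4) 9th in place of 7th, but the libraries of *Ccnd1* overlapped those of *Cdkn1b* next to it, and those of *Rb1* overlapped those of *Cdk6*, so these places did not exceed the spread. With the length of all exons merged, *Ccnd1* stood 7th in *Rpl22*-/- HSCs and *Ccnd3* 5th in both genotypes.

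The identity of the 2 genes called was checked for reads that neighbours or copies could contribute. *Ccnd1* (ENSMUSG00000070348) spans chr7:144929931-144939925 on the minus strand of GRCm38, and *Cdk6* (ENSMUSG00000040274) spans chr5:3341485-3531008 on the plus strand. The strand setting of the counting was not given in the sources used here, so reads from exons that overlap a gene on the opposite strand cannot be told apart. Such overlap covered 23.4% of the exon bases of *Ccnd1*, shared with *Oraov1*, which had 340 to 562 reads and a log2 fold change of 0.11 (edgeR adjusted p = 0.597), and 2.63% of those of *Cdk6*, shared with *Gm17590*, which had 103 to 187 reads and a log2 fold change of 0.48 (edgeR adjusted p = 0.106). For *Cdk4* it was 19.7%, shared with *Tspan31* at 395 to 630 reads, for *Rbl2* 20.97% and for *Rb1* 14.9%, each with a pair of neighbours, and for the other genes at most 7.86%. Among near-identical copies elsewhere, *Gm16505* matched *Cdk6* at 96.1% over 233 bases and was not matched by that name to the count table, so reads it may have taken or given were not examined. *Ccnd3-ps* matched *Ccnd3* at 96.6% over 417 bases and had 0 reads in every library. These neighbours and copies were named after their values were seen.

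The wider pathway was described with 63 genes in 7 lists, of which 61 were tested. Of these, 44 had point estimates above 0 and 17 below, 3 rose and none fell, beside 5.57% of all genes called, and the median log2 fold change was 0.08.

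Among the 5 other CDK inhibitors, 3 were tested, of which 2 had point estimates above 0 and 1 below, and *Cdkn1a* rose. *Cdkn1a* encodes p21, a p53 target that inhibits CDK2 complexes. It was read at 9.43, 15.5 and 13.3 CPM in *Rpl22*-/- libraries and at 2.30, 1.69 and 2.60 CPM in *Rpl22*+/+ libraries. Every *Rpl22*-/- library was far above every *Rpl22*+/+ library, with a log2 fold change of 2.54 (SE 0.25, edgeR adjusted p = 7.56e-05), and the call held in all 16 alternatives. The gene below 0 was *Cdkn1c*, named here after its values were seen, which encodes p57, an inhibitor abundant in resting HSCs. It was read at 14.7, 11.99 and 11.7 CPM in *Rpl22*-/- libraries and at 20.7, 15.3 and 18.2 CPM in *Rpl22*+/+ libraries, so that every *Rpl22*-/- library was below every *Rpl22*+/+ library. Its log2 fold change of -0.50 (SE 0.16) did not pass the test (edgeR adjusted p = 0.0757), but it passed, in the same direction, in 4 of 16 alternatives, namely without a filter (0.0347), after removal of length and GC trends alone (0.0384) or with the replicate block (0.0314), and without *Rpl22*-/- replicate 1 (0.0282). The INK4 genes *Cdkn2a* and *Cdkn2b* had at most 2 reads in any library and were not tested.

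The list of cyclin E, CDK2 and CDK-activating kinase, which acts after cyclin D, had 8 genes tested, of which none passed the test by edgeR, DESeq2 or limma-voom or reached an unadjusted p below 0.05 in edgeR. Its log2 fold changes ran from -0.09 to 0.07, and the smallest p belonged to *Cdk2*, with a log2 fold change of -0.09 (edgeR adjusted p = 0.566).

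Of the 10 E2F and DP factors, the transcription factors that pocket proteins bind, 7 had point estimates above 0 and *E2f8* and *E2f4* rose. *E2f8*, an atypical repressor made in S phase, was read at 82.2, 113 and 121 CPM in *Rpl22*-/- libraries and at 71.98, 77.9 and 74.3 CPM in *Rpl22*+/+ libraries (log2 fold change 0.50, SE 0.12, edgeR adjusted p = 0.0248). *E2f4*, the partner of p130 and p107 in resting cells, was read at 112, 156 and 142 CPM and at 102, 110.4 and 91.7 CPM (log2 fold change 0.43, SE 0.11, edgeR adjusted p = 0.0371). For both genes the genotypes did not overlap, and *Rpl22*-/- replicate 1 was the *Rpl22*-/- library nearest to the *Rpl22*+/+ range. Both calls were lost on leaving out any library other than *Rpl22*-/- replicate 1, with edgeR adjusted p-values up to 0.135 for *E2f8* and 0.150 for *E2f4*, and that of *E2f4* was also lost with length and GC trends removed (0.133).

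No gene passed the edgeR test in the remaining lists, although an unadjusted p below 0.05 was reached by 1 of 6 genes of the MuvB core and B-Myb, 3 of 6 of the ubiquitin ligases that turn over p27 and cyclin E, 1 of 16 replication genes and 4 of 12 mitotic genes. DESeq2 called 1 of the mitotic genes and none of the others, and limma-voom called none. The smallest p of each list belonged to *Mybl2*, a cell cycle transcription factor (log2 fold change 0.27, edgeR adjusted p = 0.167), *Cks1b*, a cofactor of p27 degradation (0.26, 0.138), *Gins2*, a part of the replicative helicase (0.19, 0.165), and *Plk1*, a mitotic kinase (0.53, 0.0592). Among the genes of these lists with an unadjusted p below 0.05 in edgeR, *Cul1* of the ubiquitin ligases and *Bub1* of the mitotic genes were lower. Their log2 fold changes were -0.21 and -0.24, the others counted were higher, and both were named after their values were seen. The replication list had 12 of 16 point estimates above 0 with a median of 0.12, and the mitotic list 9 of 12 with a median of 0.08. *Plk1* was at 33.3, 51.6 and 58.5 CPM in *Rpl22*-/- libraries against 33.0, 32.02 and 34.3 CPM, so that *Rpl22*-/- replicate 1 stood within the *Rpl22*+/+ range and the other 2 stood above it. Without that library 14 of the 61 listed genes (23%) were called, beside 12.1% of all genes tested. On leaving out any other library 1 of the 61 (1.64%) was called, beside 0.892% to 2.59% of all genes.

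**Figure D4:**
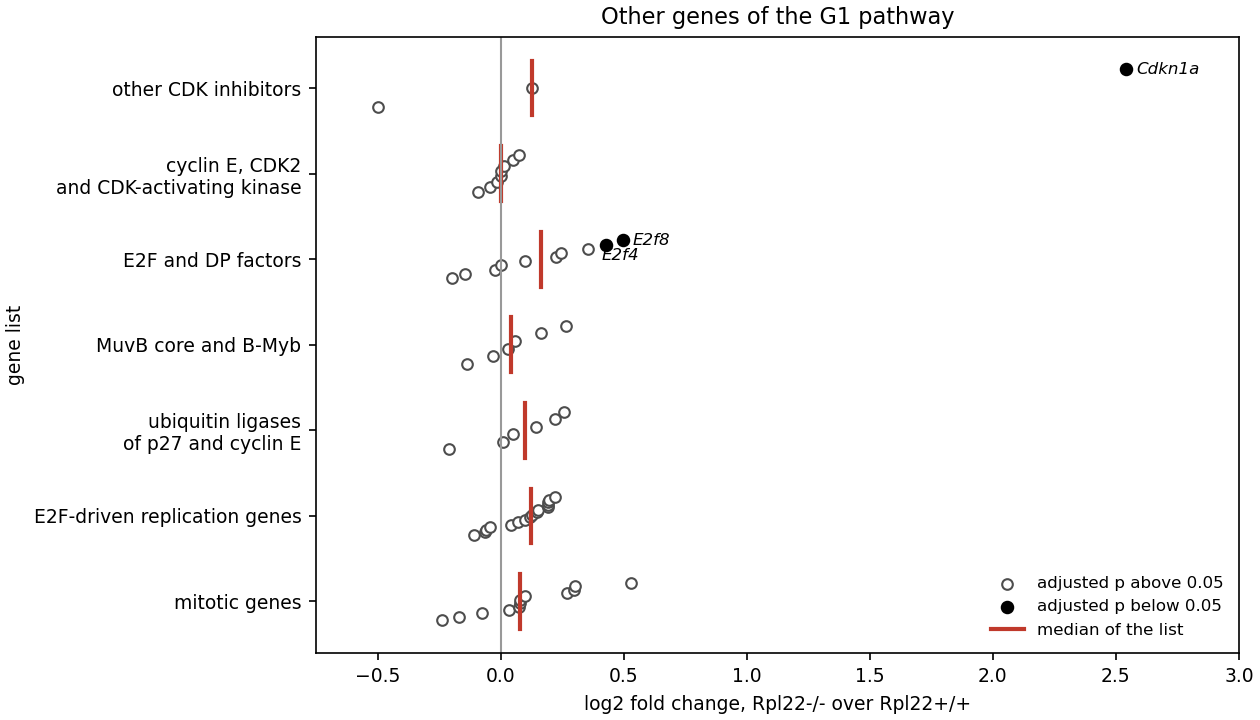
Log2 fold change, *Rpl22*-/- over *Rpl22*+/+, of the 61 pathway genes tested, by list, with filled points for an adjusted p below 0.05 and a red line at the median of each list. The 3 filled points are *Cdkn1a* at 2.54, *E2f8* at 0.50 and *E2f4* at 0.43, and the list of cyclin E and CDK2 stays within -0.09 to 0.07.

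**Figure D5:**
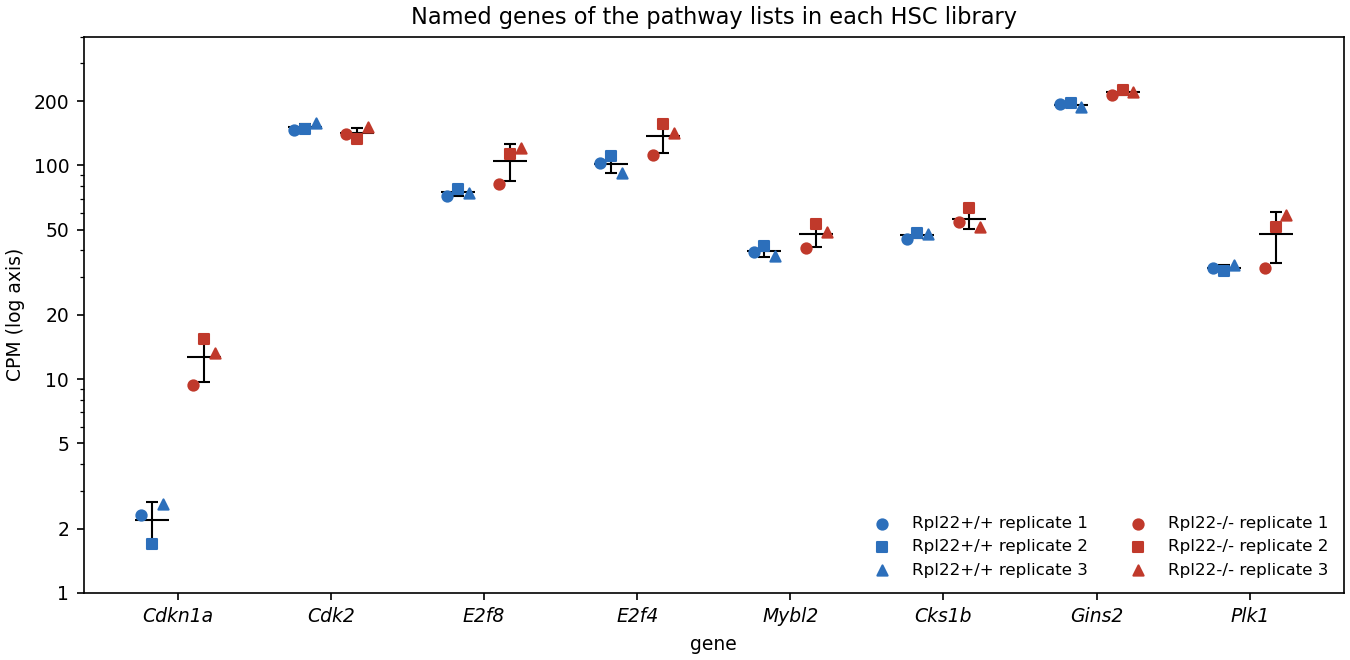
Level in each HSC library, in CPM on a log axis, of the pathway genes called and of the gene with the smallest p in each list without a call, with bars for the mean and SD of 3 libraries. *Rpl22*-/- replicate 1 (red circles) is the lowest *Rpl22*-/- point for *Cdkn1a*, *E2f8*, *E2f4*, *Mybl2*, *Gins2* and *Plk1*, and the *Cdkn1a* points lie at 9.43 to 15.5 CPM against 1.69 to 2.60 CPM.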

How the data were processed

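Per the labels, HSCs were sorted into TriReagent, and poly(A)+ libraries were made with a TruSeq RNA kit. The authors aligned reads to mm10 with TopHat2 2.1.1 and deposited, for each gene symbol, the raw counts of reads assigned by HTSeq, without normalization. Reads not assigned to a gene (58.6% to 60.9% of each library) stayed out of library sizes. Low genes were filtered in edgeR 4.0.16 under R 4.3.3 (filterByExpr, minimum count 10), which left 14004 genes, and libraries were scaled by TMM (factors 0.964 to 1.03). Genotypes were compared by the quasi-likelihood test of edgeR without covariates, and p-values were adjusted by Benjamini-Hochberg across the 14004 genes. CPM uses TMM-scaled library sizes, each SD covers 3 libraries, and intervals are at the 95% level. The study's own test was DESeq2, run here (1.42.0) as an alternative beside limma 3.58.1.

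Positions and lengths came from GENCODE M21 (GRCm38, also named mm10), in which 29093 symbols matched directly, 1880 by an older symbol and 3600 did not. Near-identical transcripts were sought with BLAST 2.17.0 (at least 95% identity over 200 bases). Promoters came from a RefSeq table. The other alternatives were 3 scalings, 2 filters, removal of each library's trends along gene length and GC content (lowess, span 0.3), replicate number as a block, and leaving out each library. The merged exon length was added after seeing the data. The script was tested on simulated data.

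The 10 genes, the pathway and marker lists and the motifs were chosen with earlier results of these data known. Named are the 10 genes, *Rpl22*, and from each pathway list the genes called (at most 4) or the gene with the smallest p. Other names are the highest gene of a marker list or are marked where they appear.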

Additional observations from a re-analysis of the deposited data

How the results depend on the processing

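The log2 fold change of *Ccnd1* was past the threshold under all 10 settings that kept every library (0.40 to 0.45) and that of *Cdk6* under 9 of 10 (0.33 to 0.52), the exception being scaling by library size alone, at 0.33, where 1 of the 10 genes was called. With 1 library left out, *Ccnd1* ranged from 0.34 to 0.53, *Cdk6* from 0.27 to 0.47, and the number of the 10 genes called from 0 to 2. The fold of no gene among the other 8 passed the threshold in any alternative, and 3 changed sign. *Cdkn1b* reached 0.011 with length and GC trends removed, 0.014 with the block added, and -0.22 to 0.021 with 1 library left out. *Cdkn2c* ranged from -0.0057 to 0.46 with 1 library left out. *Rbl1* was 0.0033 with RLE scaling, 0.0017 with upper-quartile scaling, 0.0032 by DESeq2, 0.0026 without a filter, 0.13 with trends removed, 0.12 with the block added, and -0.052 to 0.078 with 1 library left out.

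Over all genes, 780 were called, against 1422 without a filter, where more genes were tested, 496 with trends removed, 481 with trends removed and the block, and 127 to 1720 with 1 library left out. Of the calls 58.8% were higher in *Rpl22*-/- HSCs, but 43.4% of 850 with library size alone. Calls among the other CDK inhibitors were 1, and 2 without a filter, with trends removed, and with the block added (1 to 2 with 1 library left out), the second being *Cdkn1c*, lower in *Rpl22*-/- HSCs. Those among E2F and DP factors were 2, and 1 with trends removed with or without the block (0 to 4). Those among mitotic genes were 0, and 1 by DESeq2, 3 without a filter, 1 with the replicate block (0 to 4). MuvB core and B-Myb and the ubiquitin ligases each had 0 to 1 and the replication genes 0 to 2 with 1 library left out. All lists together had 3, 7 without a filter, and 1 to 14 with 1 library left out. The *Ccnd1* share of D-type cyclins differed by 1.80 to 2.69 percentage points with 1 library left out. The cause of these changes was not tested, beyond the smaller number of libraries.

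The labels do not say whether same-numbered libraries were paired, and correlations among 3 libraries per genotype cannot decide it. Same-numbered libraries had deviations correlated at -0.103, 0.0549 and 0.0448, and *Rpl22*-/- replicate 1 correlated best with *Rpl22*+/+ replicate 3 (0.132). With the replicate block 904 genes were called, and *Ccnd1* and *Cdk6* were the 2 called among the 10. *Cdkn2c*, with 228 to 449 reads per library, had the widest interval of the 10 genes.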
